A study of Homo sapiens with 23 samples.

Results

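The 10 genes described here encode 9 transcription factors and 1 coactivator that give B cells their identity: PAX5, EBF1, SPI1, SPIB, IRF4, IRF8, POU2F2, POU2AF1, IKZF1 and TCF3. They were chosen by name from 58592 genes with summed counts, and 9 of the 10 had enough counts to be tested among 17743 genes. They were measured by poly(A) RNA sequencing in 23 libraries of SUDHL5, an established line of diffuse large B cell lymphoma of the germinal centre type. All cells, controls included, were in RPMI-1640 with serum and 0.1% DMSO. CDK-TCIP1 is a bivalent compound made to bring the elongation kinase CDK9 to BCL6, the repressor of the germinal centre programme. Cells had it for 2 h at 3 doses, 10 nM in 2 libraries, 30 nM in 4 and 100 nM in 3, and for 4 h at the 30 nM dose in 3 libraries. The compounds Neg1 and Neg2, which serve as controls, were given at 30 nM for 2 h and for 4 h, with 2 libraries for each compound and time. Vehicle alone (DMSO, 3 libraries) was harvested at 4 h, so the 2 h groups were compared with Neg1 and Neg2 at 2 h. Whether replicate libraries came from separate cultures is not said in the labels, so p-values measure the spread between these libraries, which may be technical. A single cell line was used, and in a bulk library fewer cells that express a gene and less RNA per cell cannot be told apart.

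B cell identity is built in steps by these proteins. TCF3, which encodes the helix-loop-helix factors E12 and E47, and IKZF1 (Ikaros, a zinc finger factor) act in lymphoid progenitors. EBF1 then switches on the B lineage programme together with PAX5, the paired-box factor that holds B cells to their lineage and silences genes of other lineages. PU.1 (the product of SPI1) and SPIB are related ETS factors that bind purine-rich sites in B cell enhancers, where they can recruit IRF4 or IRF8. OCT2 (the product of POU2F2) binds the octamer of immunoglobulin promoters, and OBF1 (the product of POU2AF1) is the coactivator that docks on it and is needed for germinal centres. IRF8 is high in germinal centre B cells, and IRF4 rises as cells leave the germinal centre for the plasma cell state.

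Library totals ran from 17396484 to 26373153 estimated counts. The 10 defining B cell markers analysed (MS4A1, CD79A, CD79B, CD22, CD37, CD74, HLA-DRA, MME, BCL6 and CD38) were detected in every group. Their summed level was 4754 to 5162 CPM (counts scaled to library size, with TMM factors) with DMSO, Neg1 and Neg2. At 2 h it was 5156 to 5169 at 10 nM, 5401 to 5718 at 30 nM and 5945 to 6560 at 100 nM. At 30 nM for 4 h it was 4967 to 5060. CD74 made the largest part of the sum with DMSO (mean 1948 CPM) and ran from 1668 to 2928 CPM over all libraries. Against the mean of Neg1 and Neg2, 3 of the 10 rose and 3 fell at 30 nM for 2 h. At 100 nM 5 rose and 2 fell (edgeR adjusted p under 0.05 in both). Mitochondrial genes held 5.52 to 6.72% of counts in the DMSO, Neg1 and Neg2 libraries, 5.51 to 6.02% at 10 nM, 6.59 to 7.15% at 30 nM and 7.03 to 7.87% at 100 nM. Replicate 1 of the 100 nM group stood apart from its 2 replicates on the second principal component. The part of these shifts in the results was not tested.

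In TPM, which scales counts by transcript length and library size and so allows genes to be compared, TCF3 was the most abundant of the 10 in DMSO cells, at 741 ± 44.1 TPM (SD, n = 3). POU2AF1 followed at 271 ± 28.8 TPM and POU2F2 at 178 ± 14.0 TPM, and the ranges of these 3 genes and the next did not overlap. IRF8 (134 ± 2.80 TPM), SPI1 (131 ± 16.9 TPM), SPIB (130 ± 19.1 TPM) and IKZF1 (107 ± 5.56 TPM) came next, and each of the 4 overlapped its neighbour in this order. The partners that commit cells to the B lineage were the lowest of the expressed members: PAX5 stood at 40.1 ± 4.24 TPM and EBF1 at 24.1 ± 1.06 TPM.

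IRF4 (ENSG00000137265, chr6:391739-411447 of GRCh38, plus strand) was at or near 0 throughout. It held 0 counts in 13 of the 23 libraries, 1 count in 6 and 3 to 5 counts in the other 4, and its highest level was 0.0480 TPM. The 4 libraries with 3 or more counts came from 4 groups (Neg2 at 2 h and at 4 h, and CDK-TCIP1 at 30 nM and at 100 nM for 2 h). A count of 0 allows up to 3 counts, which is 0.172 CPM in the smallest library and 0.114 CPM in the largest; this limit covers counting error only. IRF4 was left out of the tests by the filter on low counts.

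**Figure D1:**
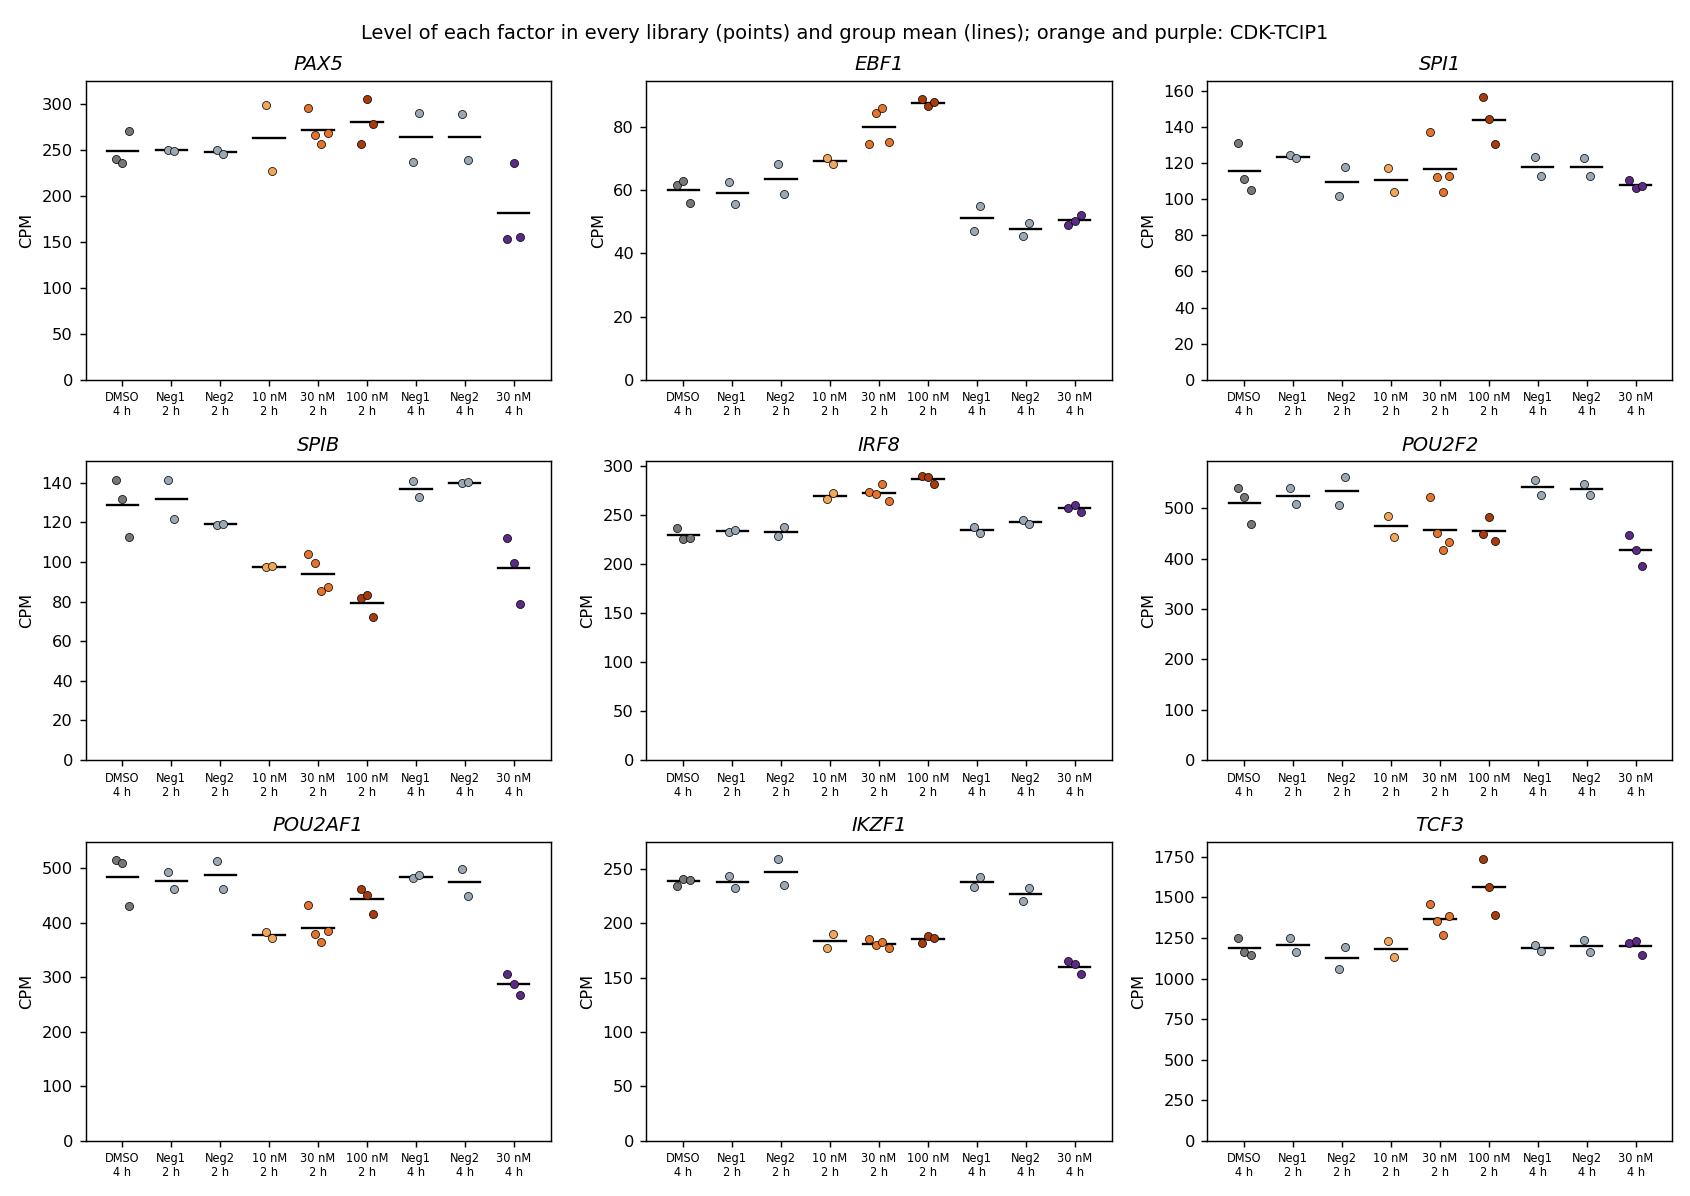
Level in CPM (y axis, from 0) of the 9 tested factors in each of the 23 libraries (points) by group (x axis), with group means as lines. POU2AF1 and IKZF1 are lowest at 30 nM for 4 h, SPIB is lowest at 100 nM for 2 h, and PAX5 is low in 2 of its 3 libraries at 30 nM for 4 h.

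After 30 nM CDK-TCIP1 for 4 h, 6 of the 9 tested members were lower than in DMSO cells and 1 was higher. Those that fell were PAX5, EBF1, SPIB, POU2F2, POU2AF1 and IKZF1, and the one that rose was IRF8. Of all genes tested, 36.8% were called in this comparison (19.3% lower and 17.5% higher, edgeR quasi-likelihood test with Benjamini-Hochberg adjustment, adjusted p under 0.05). The median log2 fold change was -0.29 over the 9 members and 0.03 over all genes tested. Against Neg1 at 4 h, 5 members were lower and 1 was higher (31.1% of genes called), and against Neg2 at 4 h, 5 were lower and none was higher (31.1%). PAX5, SPIB, POU2F2, POU2AF1 and IKZF1 were the 5 that were lower than all 3 controls. These comparisons share the treated libraries.

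The control compounds by themselves gave 0 called genes of 17743 (0% called by edgeR), and so 0 called members, in each of 5 comparisons: Neg1 and Neg2 against DMSO at 4 h, Neg1 against Neg2 at 2 h and at 4 h, and both compounds at 4 h against 2 h. At an unadjusted p under 0.05 these held 770, 1063, 1126, 464 and 1394 genes in that order, and DESeq2 called 1, 4, 1, 1 and 9 genes. Without the filter on low counts edgeR called 74, 119, 143, 47 and 196. In fits of the compared groups alone it called 1, 42, 0, 3 and 0, the 42 being between Neg2 and DMSO. Without replicate 2 of Neg2 at 2 h it called 83 between Neg1 and Neg2 at 2 h and 113 between the times. No member was called between Neg1 and Neg2 at the matched dose and times. The widest 95% interval of that difference was that of PAX5, from -0.30 to 0.31 on the log2 scale at 2 h and from -0.31 to 0.30 at 4 h. IRF8 had the narrowest, from -0.10 to 0.11 at 2 h and from -0.15 to 0.06 at 4 h.

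PAX5 (ENSG00000196092, chr9:36833275-37034185, minus strand) stood at 240.6, 236.2 and 270.7 CPM in the DMSO libraries and at 153.8, 235.7 and 155.2 CPM after 30 nM for 4 h. Replicates 1 and 3 of the treated group were low, while replicate 2 lay just under the lowest DMSO library. The log2 fold change was -0.46 ± 0.12 (SE, edgeR adjusted p = 0.00419). It was -0.69 without treated replicate 2, and from -0.51 to -0.35 when any other single library of the 2 groups was left out. Against Neg1 at 4 h it was -0.54 ± 0.13, a call lost without Neg1 replicate 2 (-0.39), and against Neg2 -0.54 ± 0.13, lost without Neg2 replicate 1. At 2 h PAX5 did not pass the test at any dose. Its libraries at 30 nM held 295.7, 266.4, 256.3 and 269.0 CPM, all above the 246.4 to 250.5 CPM of Neg1 and Neg2, and the log2 fold change against their mean was 0.13 ± 0.10 (adjusted p = 0.378).

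EBF1 (ENSG00000164330, chr5:158695916-159099761, minus strand) was lower at 4 h than at 2 h in the Neg1 and Neg2 libraries too. It was at 62.55 and 55.61 CPM (Neg1) and 68.37 and 58.85 CPM (Neg2) at 2 h, and at 47.21 and 55.01 CPM (Neg1) and 45.66 and 49.63 CPM (Neg2) at 4 h. The 4 h values all lay below the 2 h values, with a log2 difference of -0.31 ± 0.07 that edgeR did not call (adjusted p = 0.435) and DESeq2 did (adjusted p = 0.0117). The DMSO libraries at 4 h, at 61.53, 62.88 and 55.85 CPM, were all above Neg1 and Neg2 at 4 h and within their range at 2 h. With no DMSO group at 2 h, time and the control compounds cannot be told apart here. With 30 nM CDK-TCIP1 EBF1 rose at 2 h, to 74.70, 84.64, 86.02 and 75.42 CPM, which is 0.39 ± 0.06 on the log2 scale against the mean of Neg1 and Neg2 (adjusted p = 3.73e-05). These 4 libraries were all above the controls of the same time. At 4 h it was at 49.16, 50.42 and 52.19 CPM, with a log2 fold change of -0.25 ± 0.08 against DMSO (adjusted p = 0.0114), -0.02 ± 0.09 against Neg1 and 0.09 ± 0.09 against Neg2. The 3 libraries were below DMSO and among those of Neg1 and Neg2.

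TCF3 (ENSG00000071564, chr19:1609290-1652605, minus strand) rose on summed counts at 30 and 100 nM for 2 h and did not pass the test at 10 nM or at 4 h. At 2 h it ran from 1056 to 1250 CPM in the 4 Neg1 and Neg2 libraries and was at 1459, 1354, 1272 and 1386 CPM with 30 nM. These groups did not overlap, and the log2 fold change was 0.23 ± 0.06 (adjusted p = 0.00231). Against Neg2 alone it was 0.28 ± 0.07 (adjusted p = 0.00345), and against Neg1 alone it was 0.18 ± 0.07 and did not pass the edgeR test (adjusted p = 0.0584). At 4 h it was at 1250, 1164 and 1144 CPM with DMSO and at 1218, 1229 and 1147 CPM with 30 nM, which overlapped (log2 fold change 0.01 ± 0.07, adjusted p = 0.891). The difference between the responses at the 2 times was -0.23 ± 0.08 and did not pass the edgeR test (adjusted p = 0.0854).

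IKZF1 (ENSG00000185811, chr7:50304068-50405101, plus strand) fell on summed counts at every dose and time tested against controls, but on length-scaled counts it fell at 4 h and was not called at 2 h. Its libraries held 234.5, 240.9 and 240.1 CPM with DMSO and 165.0, 162.4 and 152.9 CPM after 30 nM for 4 h. The groups were far apart, and the log2 fold change was -0.57 ± 0.05 (adjusted p = 7.82e-10). At 2 h the 30 nM libraries held 185.7, 179.6, 182.7 and 177.1 CPM, below the 232.6 to 258.9 CPM of Neg1 and Neg2. The log2 fold change there was -0.42 ± 0.04 (adjusted p = 1.88e-08). With counts scaled by transcript length the 2 h values were -0.048, -0.072 and 0.074 for 10, 30 and 100 nM, and the 4 h value was -0.39.

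SPI1 (ENSG00000066336, chr11:47354860-47378576, minus strand) did not pass the test at 30 nM at either time. It held 131.1, 111.2 and 105.1 CPM with DMSO and 110.8, 106.4 and 107.3 CPM after 30 nM for 4 h, which overlapped, and the log2 fold change was -0.10 ± 0.09 (adjusted p = 0.421). SPIB (ENSG00000269404, chr19:50418938-50431313, plus strand), the other ETS factor, fell at both times. Its DMSO libraries held 141.3, 131.7 and 112.7 CPM and those with 30 nM for 4 h held 112.1, 99.65 and 78.88 CPM, so that the highest treated library lay just below the lowest DMSO library. The log2 fold change was -0.41 ± 0.10 (adjusted p = 0.00177). At 2 h SPIB was at 103.9, 99.35, 85.19 and 87.35 CPM with 30 nM, below the 118.8 to 141.4 CPM of Neg1 and Neg2, with a log2 fold change of -0.41 ± 0.09 (adjusted p = 0.000427).

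The files hold 8 SPIB transcripts, of which 3 carried at least 5% of its counts in a group. SPIB-205, of 6 exons, encodes 262 residues. SPIB-201, also of 6 exons, uses a splice site that lies 4 bases upstream at the end of exon 5 (chr19:50423605-50423755 in SPIB-205 and chr19:50423605-50423751 in SPIB-201), which changes the reading frame, and it encodes 177 residues. They also differ at their 3′ end, since the last exon, from position 50428038, has 3276 bases in SPIB-205 and 952 bases in SPIB-201. The junction of exon 5 with the last exon is printed for both because it is where their coding sequences part. It was read from the GENCODE 29 transcript sequences (GRCh38, plus strand, 5′ to 3′), and capitals mark the 4 bases that SPIB-205 has and SPIB-201 lacks.
SPIB-205: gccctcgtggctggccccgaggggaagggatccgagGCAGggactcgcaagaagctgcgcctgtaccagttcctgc
SPIB-201: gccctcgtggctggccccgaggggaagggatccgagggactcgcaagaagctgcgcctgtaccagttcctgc

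SPIB-205 held 52.6, 47.3 and 50.6% of SPIB counts with DMSO and 70.7, 72.9 and 74.3% after 30 nM for 4 h. SPIB-201 held 34.9, 39.4 and 39.2% with DMSO and 22.5, 19.9 and 22.2% after treatment. The groups did not overlap, the longer protein's transcript being higher in share and that of the shorter protein lower. Neg1 and Neg2 at 4 h held 51.5 to 55.8% for SPIB-205 and 32.6 to 36.5% for SPIB-201. At 2 h SPIB-205 was at 61.5, 63.3, 59.5 and 55.3% with 30 nM, against 48.0 to 53.4% with Neg1 and Neg2, and SPIB-201 was at 27.8, 22.4, 21.8 and 32.1%, against 33.8 to 40.8%. In level, SPIB-205 was at 24.95, 21.2 and 18.8 TPM with DMSO and 23.9, 21.8 and 17.5 TPM after 4 h, which overlapped. SPIB-201 was at 49.8, 53.5 and 43.7 TPM with DMSO and at 23.02, 18.1 and 15.7 TPM after 4 h, and these did not overlap. SPIB as a whole was at 145.0, 137.3 and 108.8 TPM with DMSO. Shares of counts favour long transcripts, so they are not shares of molecules, and SPIB-205 was below SPIB-201 in TPM with DMSO. Shares are of whole transcripts, so the splice site and the 3′ end cannot be told apart.

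**Figure D2:**
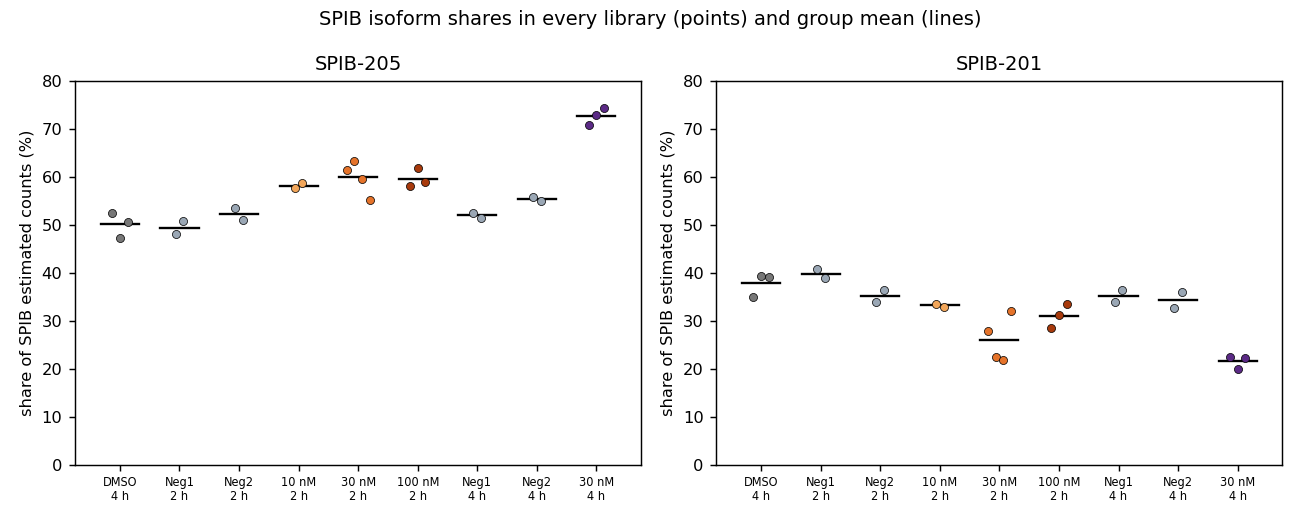
Share of SPIB estimated counts (y axis, percent) held by SPIB-205 (left) and SPIB-201 (right) in each of the 23 libraries (points) by group (x axis), with group means as lines. SPIB-205 sits at 70.7 to 74.3% at 30 nM for 4 h, above the other groups, and SPIB-201 lies below the controls of the same time in every CDK-TCIP1 library.

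The shift was tested on the log2 ratio of each isoform to the rest of its gene (limma, 23975 isoforms, of which 26 were of the members), a test added after the data were seen. At 4 h against DMSO the ratio rose by 1.40 ± 0.16 for SPIB-205 (SE, limma adjusted p = 0.000141) and fell by 1.15 ± 0.20 for SPIB-201 (limma adjusted p = 0.00283). They were the 2 member isoforms called, beside 6.39% of all isoforms tested. The other SPIB isoform with at least 5% of counts, SPIB-206 (77 residues), fell by 1.43 ± 0.44 and was not called (limma adjusted p = 0.0684). At 2 h against the mean of Neg1 and Neg2 the same 2 isoforms were called (5.48% of all), with 0.53 ± 0.14 (limma adjusted p = 0.0399) and -0.78 ± 0.18 (limma adjusted p = 0.0157). The 2 h calls rested on single libraries. That of SPIB-205 was lost without any one of the 8 libraries other than 30 nM replicate 4 (0.47 to 0.57), and that of SPIB-201 without 30 nM replicate 2 or 3 or Neg1 replicate 1 (-0.75 to -0.68). The usage test planned first, diffSpliceDGE of edgeR, called neither SPIB isoform at either time.

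IRF8 (ENSG00000140968, chr16:85898803-85922609, plus strand) was higher at both times on summed and on length-scaled counts. In TPM its 30 nM libraries overlapped DMSO at 4 h and Neg1 at 2 h. The DMSO libraries held 236.8, 225.6 and 226.8 CPM, and those with 30 nM for 4 h held 257.7, 260.2 and 253.2 CPM. These did not overlap, and the log2 fold change was 0.16 ± 0.04 (adjusted p = 0.00297), a call that was lost when genes of low counts were kept in the fit (adjusted p = 0.156). Against Neg1 at 4 h it was 0.13 ± 0.05 (adjusted p = 0.034), lost in the same way and without 30 nM replicate 1 or 2 or either Neg1 library, and against Neg2 0.08 ± 0.05 (adjusted p = 0.192). At 2 h IRF8 was at 273.5, 271.9, 281.9 and 264.0 CPM with 30 nM, above the 228.2 to 238.0 CPM of Neg1 and Neg2, with a log2 fold change of 0.22 ± 0.04 (adjusted p = 2e-05).

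POU2F2 (ENSG00000028277, chr19:42086110-42196585, minus strand), the OCT2 gene, was at 539.9, 522.1 and 468.0 CPM with DMSO and at 446.1, 417.1 and 385.5 CPM after 30 nM for 4 h. The groups did not overlap, and the log2 fold change was -0.29 ± 0.07 (adjusted p = 0.00228). At 2 h the 30 nM libraries held 522.9, 450.1, 416.8 and 433.8 CPM. Replicate 1 lay among the control libraries (507.0 to 561.2 CPM) and the other 3 lay below them, with a log2 fold change of -0.22 ± 0.06 (adjusted p = 0.00827). Set against DMSO at 4 h instead, the 2 h value was -0.16 and not called.

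POU2AF1 (ENSG00000110777, chr11:111352252-111455630, minus strand), the OBF1 gene, had the largest fall of the 9 tested members at 4 h against DMSO on summed counts. On length-scaled counts its log2 fold change was -0.77 and that of SPIB was larger (-0.87). Its libraries held 515.0, 509.0 and 430.0 CPM with DMSO and 305.9, 288.4 and 267.8 CPM after 30 nM, a log2 fold change of -0.75 ± 0.07 (adjusted p = 5.8e-09). Neg1 and Neg2 at 4 h held 449.5 to 499.4 CPM, so every treated library was below every control library. At 2 h the 30 nM libraries held 433.0, 380.1, 364.3 and 384.5 CPM, below the 461.2 to 513.4 CPM of Neg1 and Neg2, and the log2 fold change was -0.30 ± 0.06 (adjusted p = 0.000291).

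SPIB, POU2F2, POU2AF1 and IKZF1 fell at 30 nM at both times on summed counts. The bases before the starts are printed for those with a promoter entry, which are SPIB, POU2F2 and IKZF1. RefSeq (GRCh38.p14) gave windows of 300 bases, from 250 before to 50 after a start, for 8 members with 11 starts (EBF1, IRF4, IKZF1, PAX5, IRF8, TCF3, POU2F2 and SPIB), and those of SPI1 and POU2AF1 were not analysed here. The windows were searched on both strands for the octamer ATGCAAAT, the BCL6 motif TTCCTNGAA, the ETS motif CCGGAAGT, the TATA box TATAAA and the GC box GGGCGG. Neither the octamer (1.77% of 35116 promoters) nor the BCL6 motif (1.56%) was in a member's window, which says only that these letters are not there. The ETS motif was in that of POU2F2 (4.14% of all). The TATA box was in windows of SPIB, PAX5, IRF4 and IKZF1 (11.5% of all). In SPIB and IRF4 it lay within the 120 bases before the start. In PAX5 and IKZF1 it lay farther upstream, and in IKZF1 it was not in the window of the first start. The GC box was in windows of SPIB, PAX5, POU2F2, IKZF1, TCF3 and IRF4 (45% of all). Matches of the GC box may overlap each other. The 120 bases before the start are printed 5′ to 3′ on the gene's strand, and capitals mark the motif matches that lie wholly within them. They are chr19:50418818-50418937 for SPIB (plus strand, a TATA box), chr19:42132447-42132566 for POU2F2 (minus strand, GC boxes and the ETS motif read on the opposite strand) and chr7:50304596-50304715 for the first start of IKZF1 (plus strand, a GC box). Those of POU2F2 and IKZF1 lie inside the gene spans, which begin at positions 42196585 and 50304068.
SPIB: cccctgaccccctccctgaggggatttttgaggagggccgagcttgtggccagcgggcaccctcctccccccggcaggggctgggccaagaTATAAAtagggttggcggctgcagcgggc
POU2F2: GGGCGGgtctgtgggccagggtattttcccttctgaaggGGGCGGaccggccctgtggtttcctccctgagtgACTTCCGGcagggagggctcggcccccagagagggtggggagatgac
IKZF1: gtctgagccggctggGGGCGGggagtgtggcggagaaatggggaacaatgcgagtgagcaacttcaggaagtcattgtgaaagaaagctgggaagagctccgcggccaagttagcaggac

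At 2 h the members were compared over 3 doses against the same Neg1 and Neg2 libraries, which the comparisons therefore share. At 10 nM, SPIB, POU2AF1 and IKZF1 were lower and IRF8 was higher (4 of 9 called, beside 13.5% of all genes, 6.76% lower and 6.79% higher). At 30 nM, SPIB, POU2F2, POU2AF1 and IKZF1 were lower and EBF1, IRF8 and TCF3 were higher (7 of 9, beside 37.1%, 18.0% lower and 19.1% higher). At 100 nM, SPIB, POU2F2 and IKZF1 were lower and EBF1, SPI1, IRF8 and TCF3 were higher (7 of 9, beside 44.9%, 22.9% lower and 22.0% higher, and also 7 without replicate 1). These calls are on summed counts, and on length-scaled counts IKZF1 was not called at 2 h. In TPM, which has no TMM factor, EBF1, IRF8 and TCF3 at 100 nM overlapped the 2 h controls. SPI1 (116.7 to 121.7 TPM) lay below Neg1 (138.5 to 138.7) and overlapped Neg2 (121.1 to 126.3). SPIB, POU2F2 and IKZF1 lay below both. Against the compounds one at a time, 30 nM gave 6 called members with Neg1, of which 4 were lower and 2 higher (27.8% of all genes, 14.2% lower and 13.6% higher), and 7 with Neg2, of which 4 were lower and 3 higher (30.5%, 15.7% lower and 14.8% higher). The count with Neg2 was 4 without either one of the Neg2 libraries. At 10 nM the count was 2 without replicate 2 of that group, where IRF8 and SPIB were lost, and the call of SPIB was also lost without 10 nM replicate 1 or Neg1 replicate 1. That of POU2F2 at 100 nM was lost without replicate 3 (-0.18).

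**Figure D3:**
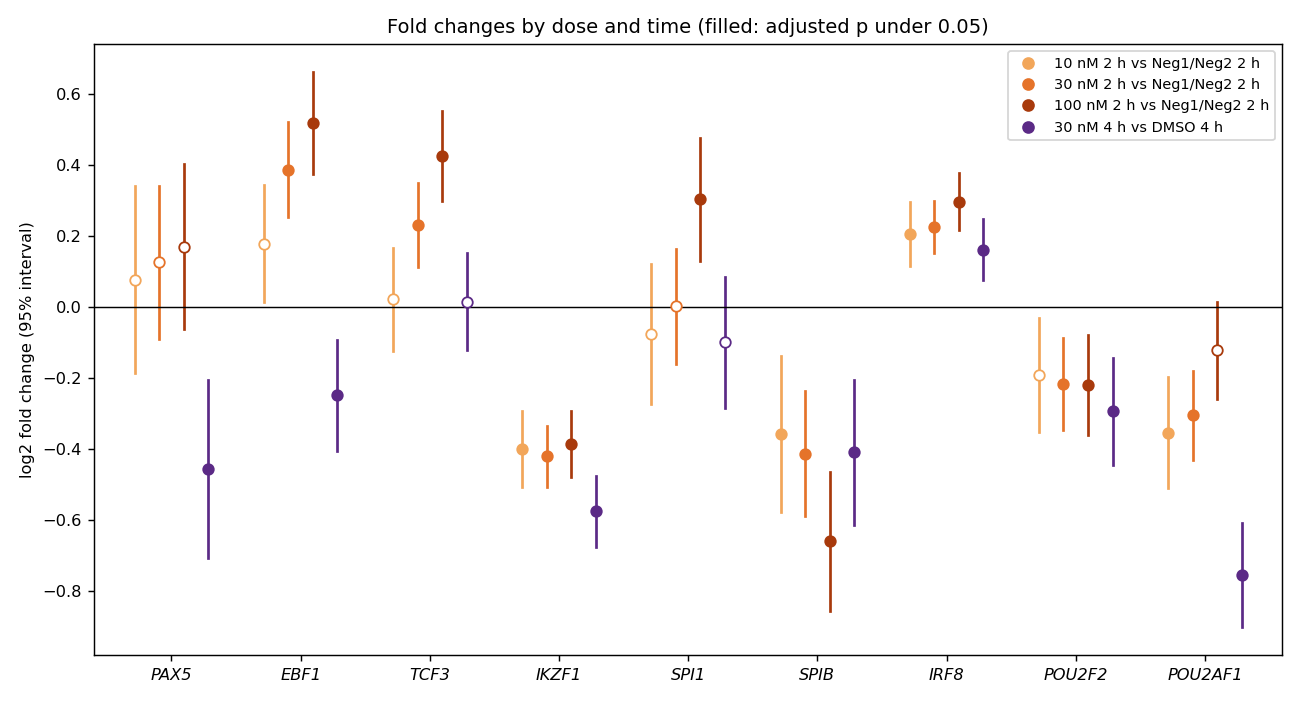
Log2 fold change (y axis) of the 9 tested factors (x axis) with its 95% interval, for 10, 30 and 100 nM CDK-TCIP1 at 2 h against the mean of Neg1 and Neg2 at 2 h and for 30 nM at 4 h against DMSO; filled points passed the test. EBF1 lies above 0 at 2 h and, against DMSO, below 0 at 4 h. Against Neg1 and Neg2 at 4 h, which are not drawn, EBF1 was at -0.02 and 0.09. IRF8 lies above 0 and SPIB and IKZF1 below 0 in all 4 comparisons.

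IKZF1 stood at 177.5 and 190.0 CPM at 10 nM and at 182.2, 188.1 and 186.6 CPM at 100 nM, with log2 fold changes of -0.40 ± 0.05 and -0.39 ± 0.05. The 2 groups overlapped on summed counts, and the difference between these doses was not tested. On length-scaled counts IKZF1 was not called at 2 h. SPIB was at 97.42 and 97.86 CPM at 10 nM and at 81.93, 83.55 and 72.20 CPM at 100 nM, and its log2 fold changes were -0.36 ± 0.11, -0.41 ± 0.09 and -0.66 ± 0.09 from the lowest dose to the highest. TCF3 gave 0.02 ± 0.07, 0.23 ± 0.06 and 0.43 ± 0.06, and EBF1 gave 0.18 ± 0.08, 0.39 ± 0.06 and 0.52 ± 0.07. On summed counts POU2AF1 had the opposite order, with -0.35 ± 0.08, -0.30 ± 0.06 and -0.12 ± 0.07, and at 100 nM, at 462.5, 451.3 and 416.3 CPM, it was not called (edgeR adjusted p = 0.144). On length-scaled counts its fall at 100 nM was called. In TPM its mean was lowest at 100 nM (178), with 193 at 10 nM and 196 at 30 nM.

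Between neighbouring doses few of these steps passed the test. No member was called by edgeR between 10 and 30 nM (2.62% of all genes, 1.82% lower and 0.800% higher), where 2 had an unadjusted p under 0.05 and DESeq2 called 1 (TCF3). Between 30 and 100 nM 2 were called as higher (12.9% of all genes, 4.44% higher and 8.45% lower). These were SPI1, at 137.2, 112.5, 104.0 and 112.7 CPM with 30 nM and 156.5, 144.4 and 130.6 CPM with 100 nM (log2 difference 0.30 ± 0.08, adjusted p = 0.0173), and TCF3, at 1738, 1565 and 1391 CPM with 100 nM (0.19 ± 0.06, adjusted p = 0.0374). Both overlapped between the doses. Neither passed without replicate 1 of the 100 nM group, the library that stands apart (SPI1 0.24, TCF3 0.11). The call of SPI1 was also lost without 30 nM replicate 3, and that of TCF3 without 30 nM replicate 2, 3 or 4 or 100 nM replicate 2.

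Between 2 h and 4 h at 30 nM, 5 of the 9 members fell and none rose (21.9% of all genes called, 11.6% lower and 10.3% higher). Their log2 differences were -0.66 ± 0.07 for EBF1, -0.58 ± 0.11 for PAX5, -0.44 ± 0.07 for POU2AF1, -0.19 ± 0.06 for TCF3 and -0.18 ± 0.05 for IKZF1. That of TCF3 was lost without replicate 1 or 4 of the 2 h group or replicate 1 or 3 of the 4 h group. The response to CDK-TCIP1, taken against the mean of Neg1 and Neg2 at the same time, differed between 4 h and 2 h for PAX5, EBF1 and POU2AF1 (3 of 9, beside 12.0% of all genes, 6.37% lower and 5.61% higher). The differences were -0.67 ± 0.16 (PAX5, adjusted p = 0.00542), -0.35 ± 0.10 (EBF1, adjusted p = 0.0177) and -0.43 ± 0.09 (POU2AF1, adjusted p = 0.0022) on the log2 scale. That of EBF1 was lost without 30 nM 4 h replicate 1 (-0.33) or Neg1 4 h replicate 2 (-0.30), and that of PAX5 with length-scaled counts (-0.51, adjusted p = 0.119). For SPIB, POU2F2 and IKZF1, which fell at both times on summed counts, the 95% intervals of this difference were -0.36 to 0.16, -0.35 to 0.03 and -0.24 to 0.01.

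A transcript's count rises with its length, so the sum over a gene depends on which isoforms are in use, and the members were also tested on counts scaled by transcript length. This scaling moved the median of all genes by less than 0.1 on the log2 scale. SPIB, POU2F2 and POU2AF1 fell and IRF8 rose under both ways of counting, at 30 nM for 2 h against the mean of Neg1 and Neg2 and for 4 h against DMSO. SPIB at 4 h was -0.87 in place of -0.41. TPM also scales by length, but it has no TMM factor, unlike CPM and the length-scaled counts. Whether length or this factor sets TPM apart from CPM was not tested. In TPM, TCF3 at 2 h ran from 670 to 776 with 30 nM and from 689 to 741 with 100 nM. These overlapped Neg1 (725 to 795) and Neg2 (712 to 714) at 2 h, unlike the 30 nM groups in CPM. IRF8 in TPM ran from 128.7 to 143.7 with 30 nM for 4 h, which overlapped DMSO (132.3 to 137.4). At 2 h it ran from 134.2 to 139.2 with 30 nM, which overlapped Neg1 (137.8 to 144.8) and lay above Neg2 (128.2 to 130.1). SPIB, POU2F2 and POU2AF1 lay below these controls in TPM at both times. PAX5 at 4 h ran from 21.4 to 34.4 TPM with 30 nM and from 36.5 to 44.7 TPM with DMSO, which did not overlap. EBF1 was farther from 0 at both times, at 0.55 at 2 h and -0.43 at 4 h. The 100 nM value of POU2AF1 at 2 h was -0.26 and called when scaled (adjusted p = 0.0163).

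**Figure D4:**
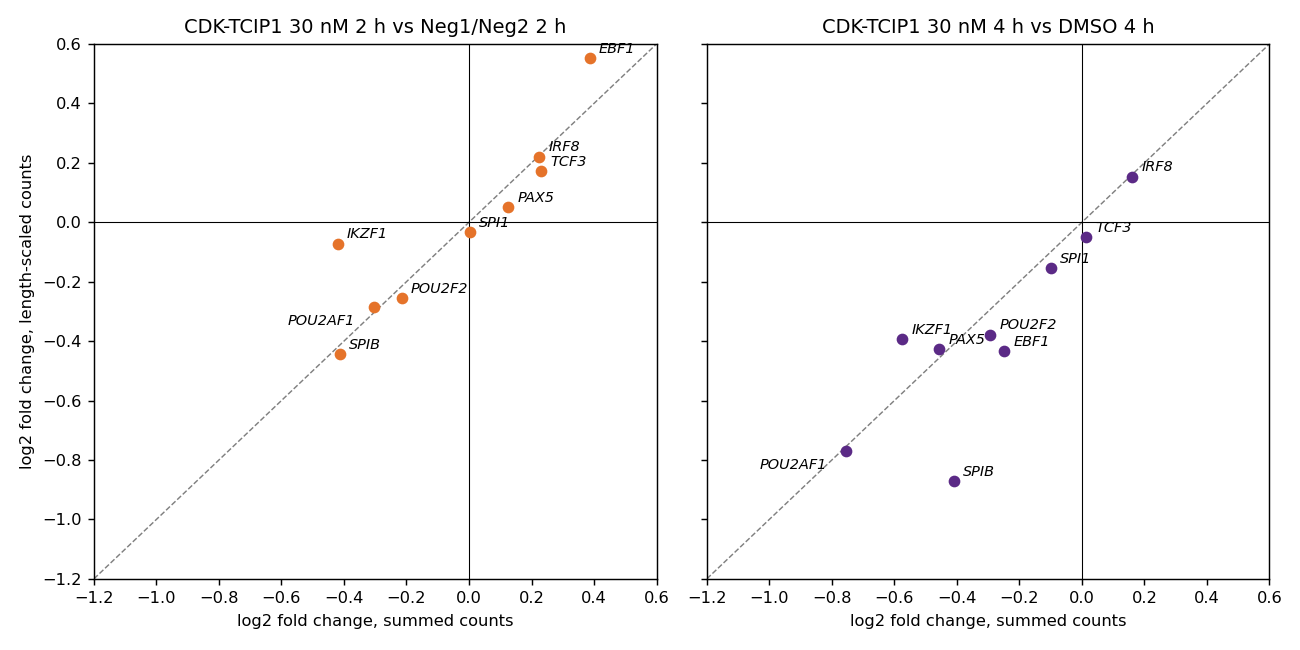
Log2 fold change of the 9 tested factors from summed counts (x axis) and from length-scaled counts (y axis), for 30 nM at 2 h against the mean of Neg1 and Neg2 (left) and at 4 h against DMSO (right), with a dashed line at equal values. IKZF1 lies near 0 on the y axis at 2 h, and SPIB lies well below the line at 4 h.

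Isoforms of the other members were compared with the same tests. The planned edgeR test called IKZF1-218 at 4 h (1 of 97 member isoforms, beside 0.816% of all tested), and IKZF1-218, TCF3-220, POU2F2-201 and POU2F2-217 at 2 h (4 of 97, beside 1.02%). IKZF1-218 was above 5% of IKZF1 counts in 3 libraries, 1 with DMSO (10.9%), 1 at 30 nM for 2 h (14.6%) and 1 at 100 nM (9.67%), and at most 2.88% in the others, so its calls rest on single libraries.

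POU2F2-202 (463 residues) held 69.9 ± 2.47% of POU2F2 counts with DMSO (n = 3). The minor transcripts POU2F2-201 (586 residues) and POU2F2-217 (618 residues) went in opposite directions at 2 h. POU2F2-201 held 1.38 to 3.08% in the 4 Neg1 and Neg2 libraries and 4.66, 6.98, 7.17 and 5.36% with 30 nM (edgeR diffSpliceDGE adjusted p = 0.0187). POU2F2-217 held 2.20 to 2.80% in the controls and 0.429, 0.641, 0.646 and 0.552% with 30 nM (adjusted p = 0.0178). Neither pair of groups overlapped. At 4 h this test called neither: POU2F2-201 was at 3.74, 2.86 and 3.25% with 30 nM and 1.53, 2.81 and 2.39% with DMSO, and POU2F2-217 at 0.569, 0.790 and 1.33% and at 2.20, 2.65 and 2.29%.

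E12 and E47 come from alternative exons of TCF3 for the helix-loop-helix domain, at chr19:1615285-1615520 (E12) and chr19:1612207-1612433 (E47). Transcripts with one or the other (6 of each) held 69.8 to 75.6% of TCF3 counts. Of these, E47 took 47.5, 42.8 and 53.6% with DMSO and 51.4, 47.4 and 41.4% after 30 nM for 4 h, which overlapped. At 2 h it took 37.8 and 44.8% with Neg1, 23.6 and 46.5% with Neg2, 36.1 and 37.9% at 10 nM, 42.4 to 55.3% at 30 nM and 47.7 to 56.0% at 100 nM. The 30 nM libraries overlapped the controls, and the 2 Neg2 libraries lay far apart. TCF3-220, of 654 residues, was at 10.1 to 21.0% of TCF3 counts in the 2 h controls and 2.87 to 10.7% with 30 nM (edgeR diffSpliceDGE adjusted p = 0.000933), and the log-ratio test did not call it (limma adjusted p = 0.152).

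The remaining members had 1 main isoform or uneven shares. PAX5-201 (391 residues) held 94.9 ± 1.06% of PAX5 counts with DMSO, POU2AF1-201 (256 residues) 97.8 ± 0.30% and IRF8-201 (426 residues) 93.5 ± 1.40% of theirs. SPI1-202 (270 residues) held 67.8 ± 2.99% and SPI1-201 (271 residues) 27.6 ± 2.36% of SPI1 counts. In IKZF1, IKZF1-201 (519 residues) held 47.4 ± 4.36% with DMSO. IKZF1-202, which lacks its exon at chr7:50376533-50376793, held 2.28, 17.2 and 12.7%, and IKZF1-203, of 3 exons and 249 residues, held 27.8, 3.59 and 4.396%. IKZF1-203 ran from 0.542 to 30.9% over the 23 libraries and was uneven within most groups. EBF1-211, which starts inside the gene at chr5:158840029-158840123 and encodes 407 residues (591 in EBF1-201), held 25.8, 34.5 and 40.9% of EBF1 counts with DMSO and 12.4, 11.8 and 11.4% after 30 nM for 4 h. These did not overlap, but Neg1 and Neg2 at 4 h ran from 5.53 to 34.8%, and the ratio was not called against DMSO (limma adjusted p = 0.216).

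Other genes of these families were followed from a list of relatives and their ID inhibitors, of which 22 of 34 were tested. At 30 nM for 4 h against DMSO 10 of the 22 fell and none rose, with a median log2 fold change of -0.24 (0.03 over all genes, of which 19.3% were lower and 17.5% higher). At 2 h against the mean of Neg1 and Neg2 10 fell and 1 rose, with a median of -0.30 (0.03 over all genes, of which 18.0% were lower and 19.1% higher). The largest falls at 4 h were those of IKZF3 (Aiolos, the Ikaros relative of mature lymphocytes), from 533 ± 11.7 to 200 ± 3.25 CPM (log2 fold change -1.41 ± 0.04), and of IKZF2 (Helios), from 22.3 ± 2.17 to 10.95 ± 2.19 CPM (-1.03 ± 0.14). Both were larger than that of IKZF1 (-0.57), a difference that was not tested. Of 34 tested other B cell transcription factors, a list that also holds IKZF3, 11 fell and 9 rose at 4 h with a median of -0.08, beside the same 19.3% and 17.5% of all genes. MYB fell by 1.39 ± 0.12, and ZEB2 and RUNX1 rose by 0.96 ± 0.13 and 0.74 ± 0.06.

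Of 23 tested genes described as activated by PAX5 or EBF1, 13 fell and 2 rose at 4 h (median log2 fold change -0.28), beside 19.3% lower and 17.5% higher over all genes. BLNK, the adaptor of the B cell receptor, went from 94.1 ± 4.19 to 40.6 ± 0.879 CPM (-1.21 ± 0.07), and CD24, a surface glycoprotein of B cells, from 78.3 ± 5.31 to 33.0 ± 2.40 CPM (-1.25 ± 0.08). The 2 that rose were the chemokine receptor CXCR5 (0.81 ± 0.15) and the adaptor BANK1 (0.35 ± 0.11). At 2 h 9 of the 23 fell and 3 rose (median -0.11), beside 18.0% lower and 19.1% higher over all genes. BLNK (-0.63 ± 0.06) and CD24 (-0.71 ± 0.07) were among those that fell at 2 h. Of 17 genes described as repressed by PAX5, 6 were tested, of which 2 fell and none rose at each time. At 4 h these were EMB (-1.02 ± 0.07) and JCHAIN, the joining chain of secreted antibodies (-0.69 ± 0.06).

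Of 18 tested genes described as bound or activated by OCT2, OBF1, PU.1 or SPIB, 4 fell and 5 rose at 4 h (median log2 fold change 0.06), beside 19.3% lower and 17.5% higher over all genes. At 2 h 4 fell and 8 rose (median 0.15), beside 18.0% and 19.1%. The number that fell was near the share over all genes at both times. S1PR2, a receptor that holds B cells in the germinal centre, went from 228 ± 8.99 to 97.8 ± 4.05 CPM at 4 h (-1.22 ± 0.07), and MS4A1, which encodes CD20, from 500 ± 10.8 to 365 ± 9.29 CPM (-0.45 ± 0.05). CXCR5, also on this list, and P2RY10 (0.76 ± 0.08) had the largest rises. Of 14 tested plasma cell genes, 5 fell and 2 rose at 4 h against DMSO (median 0.03, beside the same shares of all genes). Against Neg1 and against Neg2 6 fell and 3 rose, and the medians were below 0 (-0.13 and -0.19, beside 0.03 and 0.02 over all genes). Of all genes, 16.9% were lower and 14.2% higher against Neg1, and 16.8% and 14.4% against Neg2. ELL2 (-1.51 ± 0.48, at 1.73 ± 0.285 CPM with DMSO) and CD27 (-1.16 ± 0.07) had the largest falls, and CD38 (1.32 ± 0.18) and HSP90B1 (0.46 ± 0.05) rose.

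Of the 10 defining B cell markers, 4 fell at 4 h, which were MS4A1, CD79B (-0.31 ± 0.08), MME (-0.30 ± 0.06) and BCL6 (-0.23 ± 0.05), and CD38 and CD74 (0.15 ± 0.05) rose, beside 19.3% lower and 17.5% higher over all genes. CD79A, CD22, CD37 and HLA-DRA did not pass the test (log2 fold changes from -0.05 to 0.12). Markers of other lineages had summed levels of 2.58 to 5.35 CPM for T and NK cells, 0.753 to 1.99 CPM for myeloid cells, 1.78 to 6.55 CPM for erythroid cells and 42.8 to 65.6 CPM for epithelial cells and fibroblasts. Most of the last was the fibroblast marker DCN, at 32.8 to 60.5 CPM. Its part in the results was not tested. At 4 h 1 of 5 tested T and NK genes was called (BCL11B, at 0.365 ± 0.432 CPM with 30 nM), 0 of 2 myeloid genes (edgeR), 2 of 3 erythroid genes (ALAS2, at 1.03 ± 0.790 CPM with 30 nM, and EPOR, -0.59 ± 0.20) and 2 of 5 epithelial and fibroblast genes. Of these, ACTA2 went from 0.743 ± 0.230 to 7.44 ± 0.929 CPM and DCN from 47.02 ± 1.63 to 35.2 ± 2.90 CPM.

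Candidates were the 7370 protein-coding genes averaging 4 or more in log2 CPM. Those whose 9 group means ran closest to each of the 7 members called at 30 nM for 4 h against DMSO were found by the root mean square distance of centred log2 CPM values. For PAX5 they were VPREB3 and HACL1 (0.0437 and 0.0495), for EBF1 TNS3 and PDGFD (0.0822 and 0.0871), and for SPIB FAM72A and SKI (0.0526 and 0.0571). IRF8 was closest to PSMA2 and UPF3A (0.0155 and 0.0243), POU2F2 to KLHL7 and PIP4K2B (0.0260 and 0.0287), POU2AF1 to LPGAT1 and SLTM (0.0283 and 0.0443), and IKZF1 to ABCF2 and TP53BP1 (0.0401 and 0.0406). These genes were chosen for their likeness, and the 9 group means share libraries and depth, so the distances are a description. VPREB3 is also on the list of genes described as activated by PAX5 or EBF1.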

How the data were processed

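Per the file headers, the authors deposited 1 kallisto table per library, with estimated counts per transcript and TPM. FastQC, cutadapt, kallisto and DESeq2 are named in the submitters' processing notes, without versions, and what transcripts and strandedness were used is not given in the sources used here. Estimated counts were summed to GENCODE 29 genes, rounded and tested with edgeR 4.0.16 (R 4.3.3) after TMM scaling and filterByExpr, in 1 fit of 23 libraries and 9 groups with 14 residual degrees of freedom and Benjamini-Hochberg adjustment over 17743 genes. Transcripts not matched to a gene held 1.16 to 1.28% of counts. Totals of 17396484 to 26373153 limit precision for genes near 0, such as IRF4. TPM was used for levels between genes. The members and gene lists were chosen with earlier results of these data known. One planned gene of these lists is not reported here. Named list genes are the 2 with the largest called change in each direction at 30 nM for 4 h against DMSO, markers are named from their lists, and nearest patterns are the 2 closest genes. Isoform usage was tested with edgeR diffSpliceDGE as planned. That test recovered changes poorly on simulated data, and the limma 3.58.1 log-ratio test (pseudocount 0.5) and its alternatives were chosen after seeing the data. Other alternatives were DESeq2 1.42.0, no filter, length-scaled counts, a replicate block, the compared groups alone, other controls and each library left out. Promoters came from RefSeq (GRCh38.p14). No 2 libraries of a group agreed within sampling noise, so none was treated as a repeat deposit of another.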

Additional observations from a re-analysis of the deposited data

Results flagged for a closer look

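For 3 members the response to 30 nM CDK-TCIP1, taken against the mean of Neg1 and Neg2 at the same time, differed between 4 h and 2 h by an interaction term in the edgeR fit. The differences in log2 fold change (4 h minus 2 h) were -0.67 for PAX5, -0.35 for EBF1 and -0.43 for POU2AF1. With length-scaled counts that of PAX5 was -0.51 and not called (adjusted p = 0.119), and that of EBF1 was not called without 30 nM 4 h replicate 1 or Neg1 4 h replicate 2. In the group of 4 libraries, Dixon's ratio was tested for 13 values and none was past its critical value, where chance marks about 1 in 20 groups.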

How the results depend on the processing

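Counts of members called stayed within 1.5 times of the reported count in 111 of 124 settings that left out a library and in 93 of 114 others. Single values kept their direction and side of the threshold in 965 of 1018 and 914 of 962. The reversed ones were EBF1 at 4 h with the mean of Neg1 and Neg2 as control in place of DMSO (0.036, adjusted p = 0.739) and IKZF1 at 100 nM with length-scaled counts (0.074, adjusted p = 0.346). For 100 against 30 nM (2 called), DESeq2, no filter and the replicate block each gave 4, length-scaled counts 0 and the compared groups alone 1. For 30 against 10 nM (0 called by edgeR, 2 at an unadjusted p under 0.05), DESeq2, no filter and the replicate block each gave 1. Length-scaled counts gave 2 in place of 6 for 30 nM at 2 h against Neg1 and 4 in place of 7 against Neg2. For Neg1 and Neg2 at 4 h against 2 h DESeq2 and no filter gave 1 (EBF1), and for Neg2 against DMSO no filter gave 1 (EBF1).

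Isoforms called at 2 h were 4 by the planned test, 9 by limma voom diffSplice, 0 with isoforms of at least 10% of their gene, 2 with the replicate block and 2 by the log-ratio test. At 4 h these were 1, 7, 0, 0 and 2. Leaving out 1 library gave 1 to 5 isoforms at 2 h and 0 to 1 at 4 h, and 2 to 4 members at 10 nM, 0 to 3 for 100 against 30 nM, 4 to 6 for 30 nM at 2 h against Neg1, 4 to 7 against Neg2, 0 to 1 for Neg1 and Neg2 at 4 h against 2 h, 4 to 6 for 30 nM at 4 h against Neg1 and 2 to 4 for the difference between times. The cause of these changes was not tested.

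Replicate numbers did not pair libraries: over 78 same-number pairs the correlation of deviations ran from -0.163 to 0.173 (median 0.0111), and 4 of 23 libraries correlated best with their own number. With the replicate block POU2F2 at 2 h was no longer called against Neg1 (-0.13) or Neg2 (-0.16), nor SPIB-205 at 2 h (0.63). Depth limits IRF4, and for other members the spread between 2 to 4 libraries limits what could be called.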
